A study of Homo sapiens with 45 samples.

Results

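The 8 genes described here, CFI, CP, F5, A2M, TM4SF1, EVA1C, SLC16A12 and DRD1, are late-rising genes for secreted and membrane proteins in human cells driven towards motor neurons in culture. They were chosen, out of 58233 genes in the deposited tables, for a large difference in level between day 8 and day 15, so that difference is given below only as a description. All 8 were among the 19436 genes tested, by a filter on counts that took in libraries of every day, the late days of high level included. Proteins of 4 of them are secreted: complement factor I (CFI), ceruloplasmin (CP), coagulation factor V (F5) and alpha-2-macroglobulin (A2M). The other 4 encode membrane proteins: the L6-family protein TM4SF1, the SLIT-binding protein EVA1C, the creatine transporter SLC16A12 and the dopamine receptor DRD1.

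Most secreted plasma proteins of this kind are best known from the liver, which releases them into blood, where complement, clotting and protease inhibitors act in cascades that are started by cleavage and stopped by inhibitors. Several are also made in the nervous system: astrocytes carry a membrane-anchored form of ceruloplasmin, and glial cells can make complement proteins. In the ventral neural tube the floor plate, a strip of ciliated midline cells, secretes Sonic hedgehog and SLIT proteins, while motor neurons arise from progenitors beside it.

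All cells were of 1 line, H9, an embryonic stem cell line long in use. Before day 0 every culture was brought to a neuromesodermal progenitor state, which can give spinal cord or trunk mesoderm, in N2B27 medium with CHIR99021 (3 µM), bFGF, SB431542, DMH1 and, at first, a ROCK inhibitor. On day 0 they were plated in N2B27 with retinoic acid (RA, 100 nM), which patterns the spinal cord, SAG (500 nM), which activates the Hedgehog receptor Smoothened, and a ROCK inhibitor that was later taken out. Polyadenylated RNA was sequenced on days 0, 1, 2 and 4 to 15, with 3 libraries a day and 45 in all, and day 0 is labelled as the control, so treatment and time changed together after it. The labels name replicates as bioreps without saying whether they were separate cultures, and p-values measure the spread between these samples, which may be technical.

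Library totals ran between 22835823 and 39066247 counts. Over all genes tested, no library stood far from the other 2 of its day. The root mean square deviation lay between 0.234 and 0.324 on the log2 scale. Single genes could differ more, such as the collagen gene COL1A1 with 602, 258 and 720 CPM in replicates 1, 2 and 3 of day 14. The labelled cell types were present: SOX2, a neural progenitor factor, had 278 ± 1.5 CPM on day 14 (SD, n = 3), and TUBB3, a neuronal tubulin, had 1045 ± 14.1 CPM. SOX2 was the 1 of 6 neural progenitor markers that was higher on day 14 than on day 7; 4 were lower (PAX6, SOX1, NES and OLIG2), and the list summed to 2000 to 2134 CPM on day 14, against 3226 to 3544 CPM on day 7. Of 6 neuron markers 1 was higher and 2 were lower on day 14 than on day 7. The motor neuron factors MNX1 and ISL1 had 7.72 ± 1.04 and 6.12 ± 1.48 CPM on day 14, against 17.9 ± 1.20 and 9.01 ± 0.51 CPM on day 7. Of 6 motor neuron markers 3 were lower (MNX1, ISL1 and ISL2) and 3 higher (CHAT, SLC18A3 and SLC5A7). That list summed to 111 to 126 CPM on day 14, against 50.2 to 54.8 CPM on day 7. CPM are counts scaled to the library total, and levels are compared between genes only as TPM, which corrects for gene length.

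Sequences upstream of the genes are shown first, since genes with similar courses over time can be set side by side by what lies before their starts. RefSeq (GRCh38.p14) gave a window for 6 of the 8 genes, CFI, F5, TM4SF1, EVA1C, SLC16A12 and DRD1, with 7 windows in all. Printed 5′ to 3′ on the gene's strand are the 250 bases before the start of 4 genes that differ in base composition and in their spread between libraries. Capitals mark matches, on either strand, to the motifs searched.
CFI: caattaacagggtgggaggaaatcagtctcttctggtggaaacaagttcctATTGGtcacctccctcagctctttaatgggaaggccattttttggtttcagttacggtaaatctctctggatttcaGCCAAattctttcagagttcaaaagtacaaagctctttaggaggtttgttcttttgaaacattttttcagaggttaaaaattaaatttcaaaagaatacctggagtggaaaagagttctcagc
TM4SF1: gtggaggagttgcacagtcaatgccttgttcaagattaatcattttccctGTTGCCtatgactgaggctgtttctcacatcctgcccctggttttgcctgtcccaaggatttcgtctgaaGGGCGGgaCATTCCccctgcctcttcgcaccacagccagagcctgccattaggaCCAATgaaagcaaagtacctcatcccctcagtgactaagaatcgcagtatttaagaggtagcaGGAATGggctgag
F5: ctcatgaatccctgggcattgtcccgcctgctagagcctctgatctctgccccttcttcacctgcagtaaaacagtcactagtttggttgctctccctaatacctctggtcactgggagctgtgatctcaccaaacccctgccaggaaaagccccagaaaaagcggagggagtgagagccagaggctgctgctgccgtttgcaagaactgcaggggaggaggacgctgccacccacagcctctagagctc
DRD1: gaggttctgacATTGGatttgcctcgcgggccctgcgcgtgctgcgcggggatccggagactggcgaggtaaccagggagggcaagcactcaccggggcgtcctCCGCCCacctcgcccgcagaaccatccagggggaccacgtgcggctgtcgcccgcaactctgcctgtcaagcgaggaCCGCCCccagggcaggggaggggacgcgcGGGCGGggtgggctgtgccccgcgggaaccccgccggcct

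These windows lie on the minus strand at chr4:109802000-109802249 (CFI), chr3:149377650-149377899 (TM4SF1), chr1:169586482-169586731 (F5) and chr5:175444183-175444432 (DRD1). Their base composition was not alike. The CFI window was 38% G or C with 1 CpG, and the DRD1 window 73.2% with 27 CpG, while the median of all 35116 windows was 58% and 11 CpG. TM4SF1 had 50.8% with 4 CpG and F5 had 56.8% with 4 CpG. SLC16A12 had 81.2% with 34 CpG, and the windows of EVA1C had 75.6% with 33 CpG and 66% with 21 CpG.

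Motifs were searched on both strands. Of all windows 10.7% held the TATA box letters TATAAA, 32% held CCAAT, and 42.6% held the GC box letters GGGCGG. The AP-1 letters TGANTCA were in 6.57%, the TEAD letters CATTCC in 11.9%, and the RFX letters GTTGCC in 10.2%. The NFI letters TTGGC were in 40.8%, and of the forkhead letters TGTTTAC was in 2.98% and the variant TGTTTGC in 3.23%. No motif was shared by all 7 windows, and the TATA box, AP-1 and forkhead letters were in none of them. CCAAT and TTGGC can overlap on opposite strands, but no such overlap occurred here. The GC box was found in the windows of TM4SF1, EVA1C, SLC16A12 and DRD1, and CCAAT in those of CFI, TM4SF1 and DRD1. TM4SF1 alone had the TEAD letters, on both strands, with one copy 122 to 117 bases and the other 13 to 8 bases before the start. The RFX letters were in the windows of TM4SF1 and EVA1C, the NFI letters in those of CFI and EVA1C, and F5 had none of the motifs. A match describes these letters only.

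**Figure D1:**
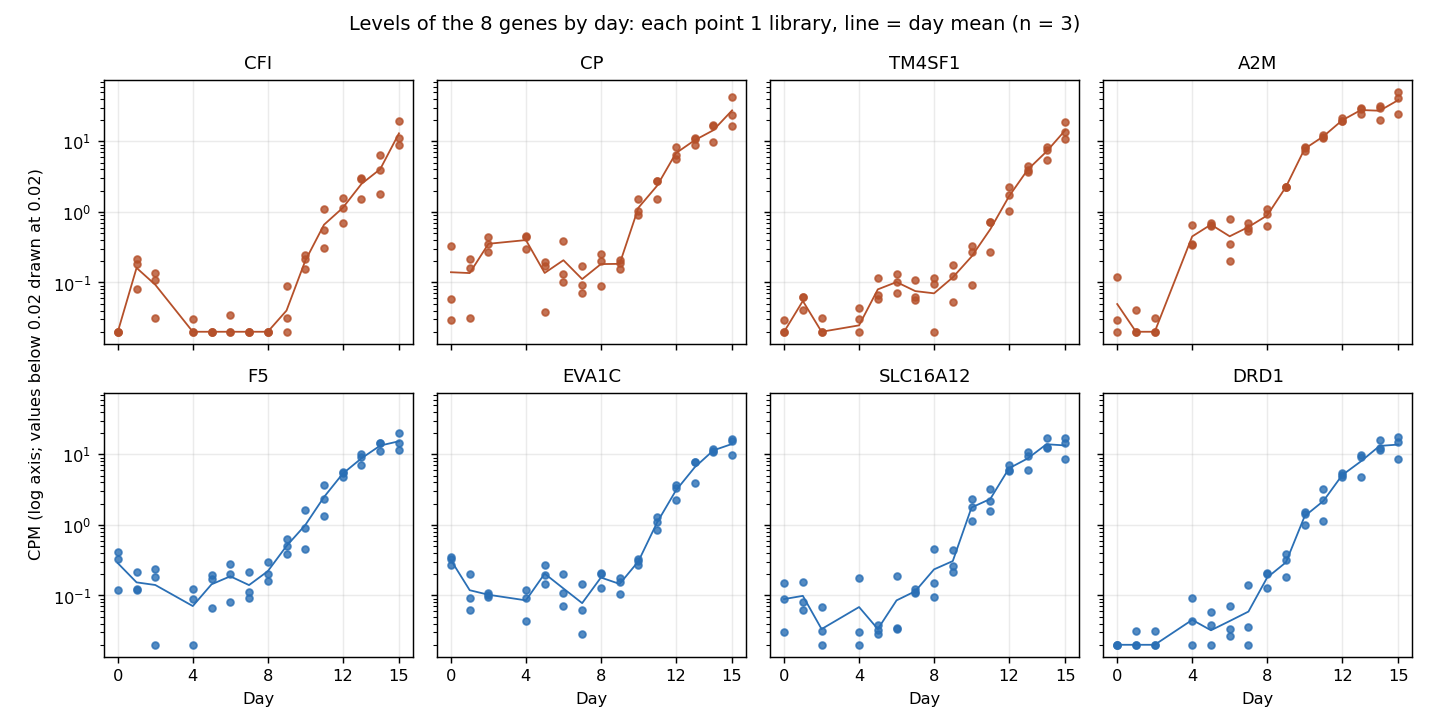
CPM (log axis) of the 8 genes in each of the 45 libraries against day, with points for libraries and a line through the day means (n = 3); values under 0.02 CPM are drawn at 0.02. All 8 genes lay at or below 1.12 CPM in every library of days 0 to 8 and between 8.5 and 50.6 CPM in the libraries of day 15.

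All 8 genes were near the limit of detection through day 8. The highest of the 24 libraries of days 0 to 8 held 1.12 CPM of A2M and between 0.134 and 0.458 CPM of the other 7. Every library exceeded that early maximum from day 9 on for A2M, from day 10 on for CP, F5, SLC16A12 and DRD1, and from day 11 on for CFI, TM4SF1 and EVA1C. The day mean first reached 50% of the day 15 mean on day 12 for A2M, on day 13 for F5, SLC16A12 and DRD1, on day 14 for CP and EVA1C, and on day 15 for CFI and TM4SF1. On day 14 the means stood between 31.1% of the day 15 mean for CFI and 104% for SLC16A12, the one gene whose highest mean was on day 14. In RNA from whole cultures, a change in the number of cells that express a gene and a change in RNA per cell cannot be told apart.

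In the contrast the genes were chosen on, day 15 against day 8, their log2 changes ranked between 1 (CFI) and 57 (A2M) among the 19436 genes. The share of all genes higher on day 15 at an adjusted p under 0.05 was 24.9%, and nothing is read from it here. The comparisons below contrast other days only. Days 9 to 14 lie on the course the genes were chosen for, so a rise within them is not independent of that choice. The fit behind these comparisons also held days 8 and 15, which entered its filter, scaling and estimate of spread. With only days 7 and 14 in the fit, CFI had an adjusted p of 0.029 for day 14 against day 7 (edgeR quasi-likelihood test).

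CFI (ENSG00000205403, chromosome 4, 109740694 to 109802179, minus strand, GRCh38) encodes the serine protease that cuts C3b and C4b and so stops the complement cascade. It had no counts in any library of day 7, 1.11, 0.557 and 0.306 CPM on day 11, 1.5, 2.97 and 3.02 CPM on day 13 and 3.96, 1.77 and 6.41 CPM on day 14. On day 15, one of the days it was chosen on, it had 11.0, 8.81 and 19.2 CPM. The spread within days 14 and 15 was wide, with replicate 2 the lowest and replicate 3 the highest both times, and the libraries of day 11 and day 13 did not overlap. CFI was at least 129-fold higher on day 14 than on day 7, taking 3 counts over the 3 libraries of day 7 as the floor (edgeR quasi-likelihood test, adjusted p = 4e-09). From day 10 the difference on day 14 was 4.25 ± 0.54 on the log2 scale (SE, edgeR quasi-likelihood test, adjusted p = 7.3e-07).

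CFI also passed the test between early days, though the filter that kept it took in the late days of high level. The fit of days 0 and 1 alone did not keep CFI, nor did that of days 1 and 7 alone. It had 0.218, 0.184 and 0.0809 CPM on day 1 and no counts on day 0, which is 15 counts against 0 and at least 5.64-fold higher on day 1 (edgeR quasi-likelihood test, adjusted p = 0.013). It was at least 5.33-fold lower on day 7 than on day 1 (edgeR quasi-likelihood test, adjusted p = 0.014). Both calls were lost without replicate 1 and without replicate 2, with edgeR adjusted p between 0.057 and 0.09, and with limma on log2(TPM + 1). Over all alternatives the adjusted p, by edgeR, DESeq2 or limma, ran between 0.00056 and 0.44 for day 1 against day 0 and between 0.00059 and 0.43 for day 7 against day 1. A protein-coding gene on the same strand, AC126283.2, overlaps CFI in the annotation, and how reads were divided between them is not given in the sources used here.

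CP (ENSG00000047457, chromosome 3, 149162410 to 149222055, minus strand) encodes ceruloplasmin, the copper-carrying ferroxidase that oxidises iron as it leaves cells. It had 16.6, 9.65 and 17.0 CPM on day 14, against 0.0933, 0.17 and 0.0716 CPM on day 7. The lowest day 14 library was far above the highest day 7 library, and the log2 change was 6.86 ± 0.47 (edgeR quasi-likelihood test, adjusted p = 1.5e-14), or 7.53 without replicate 2. CP took a step between neighbouring days, with 1.03, 0.897 and 1.51 CPM on day 10, against 0.207, 0.157 and 0.186 CPM on day 9. That change was 2.63 ± 0.56 on the log2 scale (edgeR quasi-likelihood test, adjusted p = 0.00044). On day 15 it had 24.1, 16.3 and 42.3 CPM. HPS3 overlaps CP on the other strand with 21.9 CPM on day 14, and whether counting used strand is not given in the sources used here.

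F5 (ENSG00000198734, chromosome 1, 169514166 to 169586588, minus strand) encodes coagulation factor V, the cofactor with which factor Xa turns prothrombin into thrombin. It had 14.4, 14.5 and 11.2 CPM on day 14, against 0.0933, 0.113 and 0.215 CPM on day 7. The groups were far apart, with a log2 change of 6.51 ± 0.44 (edgeR quasi-likelihood test, adjusted p = 7.9e-15). No step was detected between day 9 and day 10, where 0.454, 0.897 and 1.63 CPM on day 10 overlapped 0.385, 0.629 and 0.496 CPM on day 9 (log2 change 0.97 ± 0.44, edgeR quasi-likelihood test, adjusted p = 0.093). Between day 10 and day 14 the change was 3.70 ± 0.32 (edgeR quasi-likelihood test, adjusted p = 5.6e-11), or 4.37 without replicate 3. Day 15 added little, with 14.4, 20.2 and 11.5 CPM, which overlap the libraries of day 14.

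A2M (ENSG00000175899, chromosome 12, 9067664 to 9116229, minus strand) encodes alpha-2-macroglobulin, a large inhibitor that traps proteases and is taken up by the receptor LRP1. It was the earliest of the 8, with 0.591, 0.708 and 0.537 CPM on day 7, against 0, 0 and 0.0404 CPM on day 1. Those are 59 counts against 1, a ratio of 55.3 with a 95% counting interval of 9.55 to 2222 (edgeR quasi-likelihood test, adjusted p = 2.2e-05). The log2 change was 5.30, or 4.68 without replicate 2 and 7.45 without replicate 3. A2M had 7.99, 8.29 and 7.29 CPM on day 10, against 2.28, 2.28 and 2.23 CPM on day 9. Within each of these days the libraries were close, and the log2 change was 1.79 ± 0.23 (edgeR quasi-likelihood test, adjusted p = 2.8e-07). On day 14 it had 31.6, 20.3 and 29.7 CPM, which is 5.39 ± 0.27 above day 7 on the log2 scale (edgeR quasi-likelihood test, adjusted p = 2.9e-18) and 1.75 ± 0.19 above day 10 (edgeR quasi-likelihood test, adjusted p = 7.8e-09). A2M kept rising between day 11 and day 13 (log2 change 1.24 ± 0.19, edgeR quasi-likelihood test, adjusted p = 1.9e-05), a call that limma on log2(TPM + 0.1) did not make (adjusted p = 0.14, range over all alternatives 8.4e-07 to 0.14).

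The size of the A2M change depended on the unit. Its mean on day 14 was 44.5-fold that of day 7 in CPM and 15.3-fold in the deposited TPM. CPM per TPM follows the length that RSEM gave the gene, and for A2M it was 0.871 over days 4 to 8, 2.12 on day 10 and 2.15 on day 14, while the median over genes above 10 CPM was 1.34 on days 4 to 8 and 1.33 on day 14. For TM4SF1 the 14-to-7 fold was 95.2 in CPM and 52.0 in TPM, and for DRD1 it was 223 in CPM and 219 in TPM. An antisense gene, A2M-AS1, overlaps A2M with 1.61 CPM on day 14.

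TM4SF1 (ENSG00000169908, chromosome 3, 149369022 to 149377865, minus strand) encodes a membrane protein of the L6 family, known from blood vessel lining and from tumour cells. It had 7.63, 5.51 and 8.39 CPM on day 14, against 0.0622, 0.0566 and 0.107 CPM on day 7. The log2 change was 6.48 ± 0.42 (edgeR quasi-likelihood test, adjusted p = 3.1e-16). With CFI it was the latest of the 8: it had 0.272, 0.0928 and 0.333 CPM on day 10, and day 14 lay 4.88 ± 0.34 above that on the log2 scale (edgeR quasi-likelihood test, adjusted p = 7.3e-14). Between day 11 and day 13 it had the largest change of the 8, with 3.91, 4.41 and 3.63 CPM on day 13, against 0.72, 0.712 and 0.272 CPM on day 11. No library of these days overlapped, and the change was 2.79 ± 0.31 (edgeR quasi-likelihood test, adjusted p = 4e-08). On day 15 it had 13.5, 10.7 and 18.9 CPM, again above every library of day 14.

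EVA1C (ENSG00000166979, chromosome 21, 32412006 to 32515397, plus strand) encodes a membrane protein whose relative in Caenorhabditis elegans acts as a coreceptor for the guidance cue SLIT. It had 11.4, 12.1 and 10.8 CPM on day 14, against 0.0622, 0.0283 and 0.143 CPM on day 7. The day 14 libraries were close together, and the log2 change was 7.14 ± 0.35 (edgeR quasi-likelihood test, adjusted p = 8.1e-20), or 7.86 without replicate 3. EVA1C had 0.272, 0.309 and 0.333 CPM on day 10. Nearly all of its change in CPM, and the larger part of its log2 change, fell after that day. From day 10 to day 14 it had the largest difference of the 8 genes, 5.17 ± 0.27 (edgeR quasi-likelihood test, adjusted p = 8.1e-17). It was lower on day 1 than on day 0, with 0.0622, 0.0921 and 0.202 CPM on day 1, against 0.353, 0.267 and 0.331 CPM on day 0. This change of -1.41 ± 0.53 on the log2 scale rested on 10 counts against 32 (edgeR quasi-likelihood test, adjusted p = 0.018), and the call was lost without replicate 1 (edgeR adjusted p = 0.23), without replicate 2 (edgeR adjusted p = 0.09) and with limma on log2(TPM + 1) (adjusted p = 0.11). Its adjusted p, by edgeR, DESeq2 or limma, ran between 0.0054 and 0.23 over all alternatives. The filter that kept EVA1C took in the late days, and the fit of days 0 and 1 alone did not keep it.

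SLC16A12 (ENSG00000152779, chromosome 10, 89430299 to 89556641, minus strand) encodes a member of the monocarboxylate transporter family that carries creatine. It had 12.2, 16.9 and 12.8 CPM on day 14, against 0.124, 0.113 and 0.107 CPM on day 7. The log2 change was 6.81 ± 0.44 (edgeR quasi-likelihood test, adjusted p = 1.3e-15). A step lay between day 9 and day 10, with 1.15, 1.82 and 2.33 CPM on day 10, against 0.445, 0.262 and 0.217 CPM on day 9. The groups did not overlap, and the change was 2.51 ± 0.43 (edgeR quasi-likelihood test, adjusted p = 2.2e-05). Day 11, with 2.19, 3.22 and 1.6 CPM, overlapped day 10, and day 15, with 14.5, 17.2 and 8.5 CPM, spanned the range of day 14.

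DRD1 (ENSG00000184845, chromosome 5, 175440039 to 175444208, minus strand) encodes the dopamine receptor that raises cyclic AMP, best known from neurons of the striatum. It had 11.7, 15.8 and 12.2 CPM on day 14, against 0, 0.142 and 0.0358 CPM on day 7. Day 7 held 6 counts in all and 1 library with none, and the log2 change was 7.57 ± 0.49 (edgeR quasi-likelihood test, adjusted p = 4e-15), or 9.12 without replicate 2. DRD1 had 0.999, 1.55 and 1.45 CPM on day 10, against 0.385, 0.314 and 0.186 CPM on day 9, which did not overlap (log2 change 2.15 ± 0.45, edgeR quasi-likelihood test, adjusted p = 0.00035). On day 15 it had 14.9, 17.9 and 8.6 CPM, with replicate 3 below every library of day 14.

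**Figure D2:**
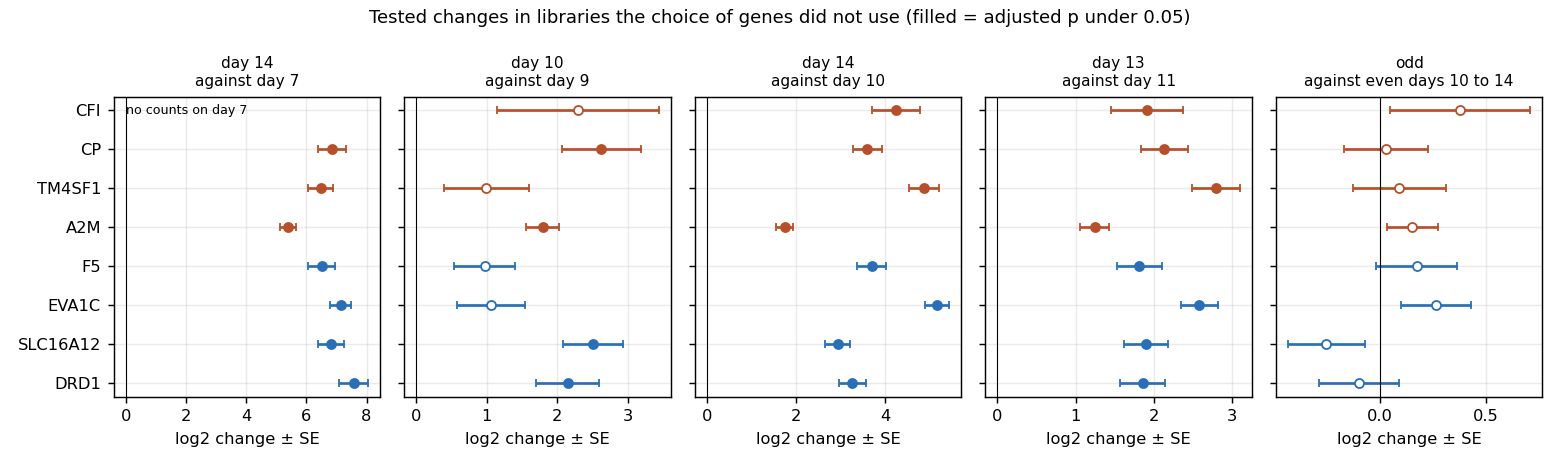
Fitted log2 changes ± SE of the 8 genes in 5 comparisons between days that the choice of genes did not use; filled points have an adjusted p under 0.05 (edgeR quasi-likelihood test). All 8 were higher on day 14 than on days 7 and 10 and on day 13 than on day 11, 4 were higher on day 10 than on day 9, and the odd and even days 10 to 14 were not told apart. CFI is left out of the first panel because it had no counts on day 7.

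Across the 8 genes, all were higher on day 14 than on day 7, where 26.4% of the genes tested were higher. Because the genes were chosen for a rise between day 8 and day 15, such counts for late days were largely set by that choice. The shares of all genes are given for scale only. Apart from CFI the log2 changes lay between 5.39 and 7.57, and the median over all genes tested was 0.0034. All 8 were also higher on day 14 than on day 10, against 15.6% of the genes tested, with log2 changes between 1.75 (A2M) and 5.17 (EVA1C). They were higher on day 13 than on day 11 as well, against 5.61%, with changes between 1.24 (A2M) and 2.79 (TM4SF1). The CFI change of 1.92 ± 0.46 between those days had the highest p of the 8 (edgeR quasi-likelihood test, adjusted p = 0.0078). It did not pass without replicate 2 (edgeR adjusted p = 0.093), without replicate 3 (0.11), without day 11 replicate 3 alone (0.059) or with only these days in the fit (0.068). Without replicate 1 it was 2.77, and over all alternatives its adjusted p, by edgeR, DESeq2 or limma, ran between 0.0022 and 0.11. DRD1 narrowly missed as well with only these days in the fit (edgeR adjusted p = 0.057, range over all alternatives 8.2e-07 to 0.057).

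Between day 9 and day 10, 4 of the 8 were higher on day 10 (CP, A2M, SLC16A12 and DRD1), against 15.9% of the genes tested. The other 4 had log2 changes of 2.29 ± 1.15 for CFI, 0.97 ± 0.44 for F5, 0.99 ± 0.60 for TM4SF1 and 1.06 ± 0.48 for EVA1C, with edgeR adjusted p between 0.091 and 0.22. CFI rested on 20 counts on day 10 and 4 on day 9, and passed with DESeq2 (adjusted p = 0.036) and with limma on log2(TPM + 0.1) (adjusted p = 0.029), in a range of 0.029 to 0.49 over its alternatives. Its log2 change was 3.48 without replicate 1. EVA1C passed narrowly without day 13 replicate 3 (edgeR adjusted p = 0.05 when rounded), in a range of 0.05 to 0.73 over its alternatives. Whether the genes that passed differ in this step from those that did not was not tested.

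Before the late window the 8 genes had little in common. Between day 0 and day 1, CFI alone was higher on day 1, against 30.1% of the genes tested, and EVA1C alone was lower, against 31.7%. Between day 1 and day 7, A2M alone was higher on day 7, against 32.5%, and CFI alone was lower, against 31%. The remaining values were of few counts, with between 0 and 32 counts per gene in the 3 libraries of day 0 and between 1 and 15 on day 1. With so few counts, smaller changes were not detectable at this depth. These early tests also rest on a filter that took in the late days. The fit of days 0 and 1 alone kept no gene of the 8, and that of days 1 and 7 alone kept only A2M.

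The medium was replaced every other day, per the labels' protocols, so odd and even days were also compared (days 11 and 13 against days 10, 12 and 14). This cancels a trend that is a straight line on the log2 scale. A curved course is not cancelled, and its part in these differences cannot be told from that of odd and even days. In this comparison 0 of the 8 passed in edgeR's quasi-likelihood test and 0 had an unadjusted p under 0.05, against 6.46% of the genes tested that passed in either direction, and DESeq2 also called 0. The log2 differences lay between -0.25 (SLC16A12) and 0.38 (CFI). Nor did the change over a pair of days differ between odd and even days for any of the 8, with 0 at an unadjusted p under 0.05 in edgeR, 0 called by DESeq2 and 0.0154% of the genes tested called in either direction. The labels do not say on which days medium was replaced, and a p that misses the threshold does not show that odd and even days were alike.

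Neighbours in the order of day means often overlapped. Counting down from the highest mean, CFI separated without overlap only between day 15 and day 14 and between day 11 and day 10. TM4SF1 separated at each step from day 15 down to day 11, and EVA1C at each step from day 14 down to day 11 and on to day 0, the next in its order, and between day 10 and day 5. A2M separated at each step from day 12 down to day 8 and between day 4 and day 0, and F5 from day 14 down to day 11. SLC16A12 separated only between day 12 and day 11 and between day 10 and day 9, and DRD1 at these steps and between day 14 and day 13. CP separated at each step from day 13 down to day 10 and on to day 4. All other neighbours in these orders overlapped.

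Per length, the levels on day 15 ordered differently from the counts. EVA1C had 26.3 ± 6.70 TPM, CP 18.2 ± 9.47 TPM, A2M 17.0 ± 4.63 TPM, TM4SF1 15.1 ± 4.29 TPM and CFI 12.7 ± 4.95 TPM (mean ± SD, n = 3). F5 had 6.37 ± 2.43 TPM, DRD1 6.17 ± 2.12 TPM and SLC16A12 5.48 ± 1.36 TPM. All neighbours in this order overlapped in their libraries. On day 14 EVA1C stood apart at 20.9 ± 2.63 TPM, with A2M next at 12.7 ± 2.29 TPM and CFI lowest at 3.89 ± 2.09 TPM.

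**Figure D3:**
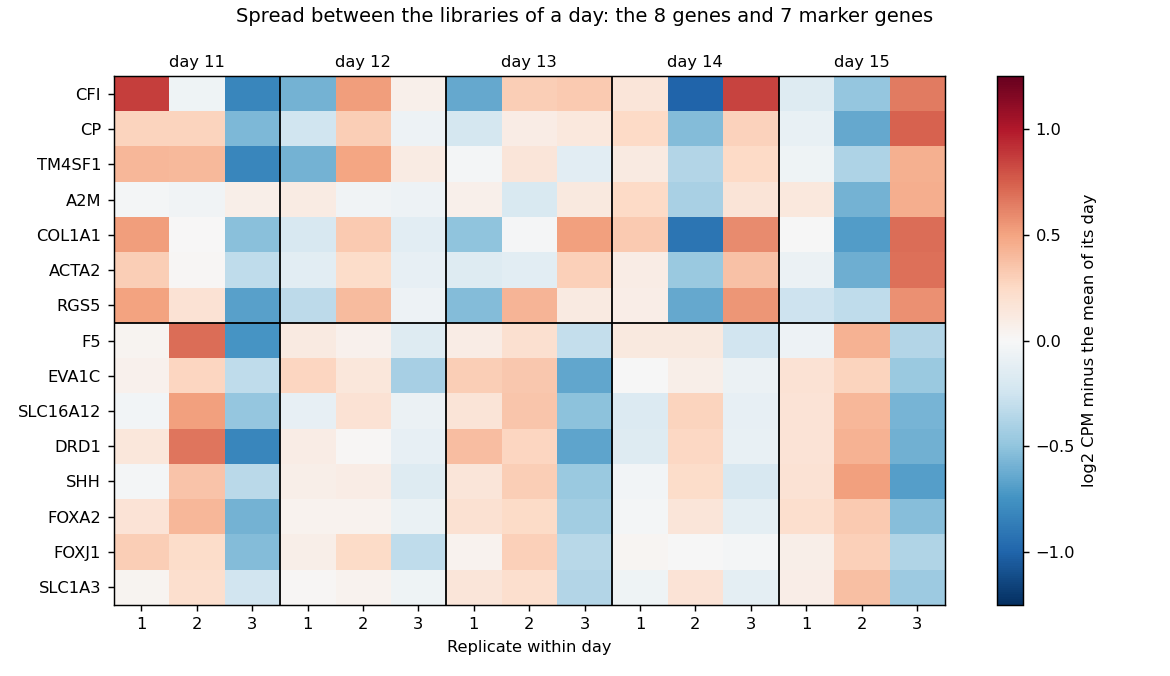
Log2 CPM of each library minus the mean of its day for the 8 genes and 7 marker genes on days 11 to 15, in columns by day and replicate; red is above and blue below the day mean. CFI, CP and TM4SF1 share their pattern with COL1A1, ACTA2 and RGS5, and F5, EVA1C, SLC16A12 and DRD1 with SHH, FOXA2 and SLC1A3. Over days 10 to 15, DRD1 and FOXJ1 had the same order in only 12 of 18 pairs of libraries. Day 10 is not drawn. On that day replicate 3 was the highest for F5, EVA1C and SLC16A12, as for CFI, CP and TM4SF1, and replicate 2 for DRD1.

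The spread between libraries of the same day fell into a pair of patterns. These were noticed after the values were seen, and are a description of 6 days with 3 pairs of libraries a day, 18 pairs in all from day 10 to day 15. The pairs of a day share libraries and are not independent. Some orders rest on few counts, such as 9, 10 and 11 counts of EVA1C and 7, 5 and 8 of CFI on day 10. CFI and CP ordered the libraries alike in 18 of 18 pairs, and 0.432% of the genes tested shared at least that many with CFI. TM4SF1 had the order of CFI in 16 of 18 pairs, a number that 4.07% of genes tested reached with CFI. F5 and EVA1C also shared 18 of 18 pairs, against 0.0103% of genes tested, and SLC16A12 and DRD1 each shared 15 of 18 with both, which 2.19% of genes tested reached with F5. CFI and DRD1 were alike in 5 of 18, and 18.1% of the genes tested shared as few or fewer with CFI. On day 15 replicate 3 was the highest library for CFI, CP, TM4SF1 and A2M and the lowest for F5, EVA1C, SLC16A12 and DRD1.

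Some marker genes of other cells moved with these patterns. COL1A1, a collagen of fibroblasts and meninges, ACTA2 of smooth muscle and RGS5 of pericytes each had the order of CFI and of CP in 17 of 18 pairs, a number that 1.74% of genes tested reached with CFI. With TM4SF1, RGS5 had 17 of 18 pairs (0.612% of genes tested), and COL1A1 and ACTA2 had 15 (5.78%). On day 15 COL1A1 had 548, 337 and 880 CPM in replicates 1, 2 and 3, where CFI had 11.0, 8.81 and 19.2 CPM. On day 14 it had 602, 258 and 720 CPM, where CFI had 3.96, 1.77 and 6.41 CPM. Yet COL1A1 was already at 1331, 607 and 1292 CPM on day 10, when CFI had 0.212, 0.155 and 0.242 CPM. The summed fibroblast and meninges list lay between 275 and 736 CPM on day 14, against 210 to 358 CPM on day 7, with 3 of its 6 markers higher, 2 lower and DCN, PDGFRA and FOXC1 under 1 CPM on day 14. The pericyte and smooth muscle list summed to 83.3 to 151 CPM on day 14, against 84.0 to 107 CPM on day 7, with 2 of 5 markers higher. Other markers of these lists were not compared in pairs of libraries, and they differed. On day 15 replicate 3 was the lowest for LUM (9.94, 13.4 and 8.42 CPM), KCNJ8 (6.09, 6.00 and 5.66 CPM) and COL1A2 (1.63, 1.67 and 1.59 CPM). It was the highest for PDGFRB (13.3, 10.5 and 14.7 CPM), MYH11 and FOXC1. The part of these markers in the levels of CFI, CP and TM4SF1 was not tested.

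The other pattern went with some floor plate and glial genes. SLC1A3, a glutamate transporter of radial glia and astrocytes, had the order of F5 and of EVA1C in 17 of 18 pairs (0.211% of genes tested), and SHH and FOXA2 of the floor plate in 16 of 18 (0.715%). FOXJ1, a factor of motile cilia, had the order of F5 and of EVA1C in 15 of 18 pairs (2.19%), but that of DRD1 in 12, which 19.7% of genes tested reached. On day 15 SHH had 139, 174 and 75.4 CPM in replicates 1, 2 and 3, where EVA1C had 15.7, 16.7 and 9.91 CPM. All 5 floor plate markers were higher on day 14, with a sum of 2397 to 3131 CPM, against 477 to 538 CPM on day 7. Likewise all 5 ependyma markers were higher, with a sum of 156 to 161 CPM on day 14, against 19.3 to 24.3 CPM on day 7. Of 8 radial glia and astrocyte markers 6 were higher and 1 lower, with a sum of 384 to 431 CPM on day 14, against 129 to 151 CPM on day 7, but GFAP (0.0781 CPM) and AQP4 (0.373 CPM), defining markers of mature astrocytes, stayed under 1 CPM. SLC1A3 alone of this list was compared in pairs of libraries, and the others differed. On day 15 replicate 3 was the lowest for FABP7, SOX9 and NFIA, as for F5. It was the highest for HOPX (1.75, 1.11 and 1.95 CPM), and replicate 2 was the lowest for HOPX, S100B, AQP4 and GFAP. On day 14 NFIA had 44.6, 38.7 and 45.9 CPM, with replicate 3 the highest. What these markers contribute to the levels of F5, EVA1C, SLC16A12 and DRD1 was not tested.

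A2M followed neither pattern throughout. It shared 9 of 18 pairs with CFI, a number that 58% of genes tested reached with A2M. With SLC16A12 it shared 2 of 18, and 0.731% of genes tested shared as few or fewer with A2M. Its libraries of days 10 to 12 were close together. Markers of tissues best known for these proteins were low. ALB had 0.0868 CPM and AFP 0.026 CPM on day 14, SOX17 was at 0, and the hepatocyte and endoderm list summed to 1.51 to 2.13 CPM, against 0.84 to 1.4 CPM on day 7, mostly from APOA1. The microglia and blood list summed to 0.365 to 0.598 CPM on day 14, against 0.107 to 0.218 CPM on day 7, with both of the 2 markers tested higher on day 14 and CSF1R, HBG1 and SPI1 at 0 that day. The choroid plexus list summed to 2.55 to 3.15 CPM on day 14, against 1.06 to 1.59 CPM on day 7, with 2 of 5 markers higher and FOLR1 and KCNJ13 at 0 on day 14. Of 6 endothelial markers 3 were higher and 2 lower on day 14; they summed to 13.4 to 16.5 CPM on day 14, against 5.33 to 6.91 CPM on day 7, most of it KDR, while PECAM1 (0.0868 CPM) and CDH5 (0.191 CPM) stayed under 1 CPM.

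Other genes had nearly the same course. Over the 15 day means of log2 CPM, Pearson's r was highest with DRC3 and CFAP54 for CFI, at 0.983 and 0.981, and with DNAH7 and ZNF436 for TM4SF1, both at 0.981. For CP the most alike were ARHGAP20 and NAXE, both at 0.982. F5 was most like SLC1A3 (0.990) and BBOF1 (0.987), A2M most like KDR (0.993) and PLXDC2 (0.985), and EVA1C most like PRR29 (0.985) and CFAP77 (0.980). SLC16A12 was very like DRD1 (0.993), and DRD1 very like RGS6 (0.994). The day means come from the same 45 libraries and share a common trend, and 14161 protein-coding genes were searched, so high values are a description. DRC3, CFAP54, DNAH7 and CFAP77 are genes of motile cilia, and KDR encodes a receptor for VEGF.

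The genes named depended on the scale. On log2(TPM + 1), 1 of the 2 genes stayed among the 2 most alike for A2M, EVA1C and SLC16A12, and 0 of 2 for the other 5. With days 8 and 15 left out, the 2 genes of CP stayed, 1 of 2 stayed for F5, A2M, EVA1C and DRD1, and 0 of 2 for CFI, TM4SF1 and SLC16A12. For the mean of the 8 genes the most alike were NAXE, SLC1A3, DNAH7, CFAP52, WDR38, NCMAP, ARHGAP20 and DNALI1, with r between 0.988 and 0.995. Of these 8, 3 stayed on log2(TPM + 1) and 6 with days 8 and 15 left out.

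**Figure D4:**
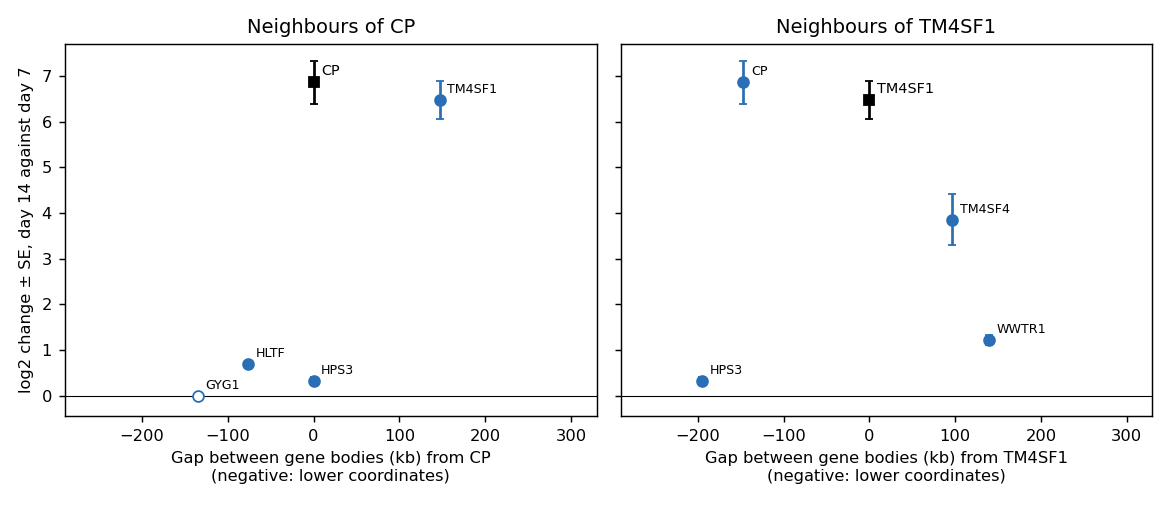
Fitted log2 change ± SE, day 14 against day 7, of CP and TM4SF1 (squares, at 0 kb) and of the tested protein-coding genes within 250 kb (circles), against the gap between gene bodies; filled circles have an adjusted p under 0.05. CP and TM4SF1 lie 147 kb apart at similar heights, while HPS3, HLTF and GYG1 lie near 0. TM4SF4 (3.85) and WWTR1 (1.22) lie in between.

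CP and TM4SF1 are neighbours on chromosome 3, on the same strand and 147 kb apart. Within 250 kb of one or the other, HPS3, HLTF, TM4SF4 and WWTR1 were also higher on day 14 than on day 7, and GYG1 was not (log2 change -0.0060 ± 0.074, edgeR quasi-likelihood test, adjusted p = 0.96). The changes of HPS3 (0.32 ± 0.09, edgeR adjusted p = 0.0025), HLTF (0.69 ± 0.08, edgeR adjusted p = 1.4e-09) and WWTR1 (1.22 ± 0.12, edgeR adjusted p = 3.5e-11) were far smaller than those of CP and TM4SF1. The change of TM4SF4 was larger than these, at 3.85 ± 0.56 (edgeR quasi-likelihood test, adjusted p = 1.7e-07), and rested on 4 counts on day 7. WWTR1 encodes a coactivator of TEAD factors in the Hippo pathway.

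SELP, a neighbour of F5, was picked out after its values were seen. It encodes P-selectin, an adhesion receptor known from platelets and endothelium, and lies 2.26 kb from F5 on the same strand. SELP had 2.42, 2.81 and 2.29 CPM on day 14, against 0, 0.0849 and 0 CPM on day 7, or 289 counts against 3, a ratio of 79.8 with a 95% counting interval of 27.0 to 389 (edgeR quasi-likelihood test, adjusted p = 7.5e-09). On day 15 it had 1.63, 2.89 and 1.18 CPM, with replicate 2 the highest and replicate 3 the lowest, as for F5. Among other tested neighbours of F5, NME7, BLZF1 and CCDC181 were higher and SLC19A2 and C1orf112 lower, with log2 changes between -0.45 and 0.52, and METTL18 did not pass.

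Partners of the secreted proteins were counted in lists chosen by function. Beside the counts, 26.4% of all genes tested were higher on day 14 than on day 7 and 25.7% lower. Of 19 complement genes tested besides CFI, 10 rose and 9 did not pass, with a median log2 change of 0.48 over the 19. MASP1, a protease that starts the lectin pathway, had 12.4 ± 1.2 CPM on day 14 and 0.802 ± 0.126 CPM on day 7 (log2 change 3.87 ± 0.21, edgeR quasi-likelihood test, adjusted p = 2.3e-18). C5AR1, the C5a receptor, rose by 3.54 ± 0.40 (edgeR quasi-likelihood test, adjusted p = 9.8e-10) and C4B, which shares reads with its near copy C4A, by 2.40 ± 0.40 (edgeR quasi-likelihood test, adjusted p = 3.9e-06). Of the substrates of CFI, C3 had 0.0955 ± 0.0398 CPM on day 14 and 0.0745 ± 0.0392 CPM on day 7 (edgeR quasi-likelihood test, adjusted p = 0.75). C4A, uncertain as C4B is, rose to 5.23 ± 0.0655 CPM on day 14, against 3.07 ± 0.777 CPM on day 7 (edgeR quasi-likelihood test, adjusted p = 0.0022).

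Clotting genes moved both ways. Of 24 tested besides F5, 11 rose, 9 fell and 4 did not pass, with a median log2 change of 0.0083. F2, the prothrombin that factor V helps to cleave, fell to 0.0347 ± 0.0398 CPM on day 14, against 0.696 ± 0.0930 CPM on day 7 (log2 change -4.24 ± 0.59, edgeR quasi-likelihood test, adjusted p = 4.8e-08). SERPINF2, the inhibitor of plasmin, had 10.7 ± 2.89 CPM on day 14 and 0.215 ± 0.0999 CPM on day 7 (log2 change 5.58 ± 0.53, edgeR quasi-likelihood test, adjusted p = 7.5e-11). F13A1, a subunit of the clot-linking enzyme, had 0.477 ± 0.129 CPM on day 14 and no counts on day 7, at least 15.2-fold higher on day 14 (edgeR quasi-likelihood test, adjusted p = 7.9e-07).

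Among 19 iron and copper genes tested besides CP, 7 rose, 6 fell and 6 did not pass, with a median log2 change of -0.00055. SLC40A1, the iron exporter that works with ferroxidases such as ceruloplasmin, had 11.6 ± 0.245 CPM on day 14 and 2.33 ± 0.268 CPM on day 7 (log2 change 2.24 ± 0.16, edgeR quasi-likelihood test, adjusted p = 1.7e-14). HEPH, another ferroxidase, also rose, to 125 ± 4.89 CPM on day 14, against 85.9 ± 1.68 CPM on day 7 (edgeR quasi-likelihood test, adjusted p = 1.4e-10). TFR2, a transferrin receptor, rose by 1.44 ± 0.34 (edgeR quasi-likelihood test, adjusted p = 0.0005), and the metallothionein MT1X, one of a family of similar genes, fell by 1.23 ± 0.15 (edgeR quasi-likelihood test, adjusted p = 7.5e-09). Of 4 genes of the A2M list tested besides A2M, CD109, a membrane relative, rose by 1.63 ± 0.24 (edgeR quasi-likelihood test, adjusted p = 4.8e-07) and the receptor LRP1 fell, with 288 ± 28.9 CPM on day 14 and 425 ± 48.9 CPM on day 7 (log2 change -0.62 ± 0.09, edgeR quasi-likelihood test, adjusted p = 3.6e-07).

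Relatives and partners of the membrane proteins were counted in the same way. TM4SF4, the 1 other L6-family gene tested, rose by 3.85 ± 0.56 (edgeR quasi-likelihood test, adjusted p = 1.7e-07) but to only 0.686 ± 0.0607 CPM on day 14, against 0.0412 ± 0.0136 CPM on day 7. In the EVA1 and SLIT-ROBO list 4 of 8 rose, 2 fell and 2 did not pass, with a median log2 change of 0.73. The guidance cue SLIT1 rose by 1.41 ± 0.14 (edgeR quasi-likelihood test, adjusted p = 4e-10). SLIT2 rose by 1.29 ± 0.14 (edgeR quasi-likelihood test, adjusted p = 3.4e-09) and EVA1A by 1.70 ± 0.15 (edgeR quasi-likelihood test, adjusted p = 1.2e-12), and the 2 that fell were the SLIT receptors ROBO2 and ROBO3.

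Of 14 other genes in the monocarboxylate transporter list 2 rose, 3 fell and 9 did not pass, with a median log2 change of -0.017. SLC16A14 rose by 2.15 ± 0.18 (edgeR quasi-likelihood test, adjusted p = 1.1e-12), to 11.4 ± 1.2 CPM on day 14, against 2.44 ± 0.734 CPM on day 7. SLC16A10, an aromatic amino acid carrier, fell by 1.15 ± 0.12 (edgeR quasi-likelihood test, adjusted p = 3.5e-10), and SLC16A8 by 1.5 ± 0.60, with 0.0781 ± 0.0521 CPM on day 14 and 0.215 ± 0.0700 CPM on day 7 (edgeR quasi-likelihood test, adjusted p = 0.028).

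In the dopamine list, 7 of 14 genes besides DRD1 rose, 5 fell and 2 did not pass, with a median log2 change of 0.40. DRD2, the receptor of the opposite coupling, fell to 8.87 ± 0.693 CPM on day 14, against 35.1 ± 5.38 CPM on day 7 (log2 change -2.05 ± 0.16, edgeR quasi-likelihood test, adjusted p = 3.1e-13). DDC, which makes dopamine and serotonin from their precursors, had 26.1 ± 6.19 CPM on day 14 and 1.17 ± 0.263 CPM on day 7 (log2 change 4.42 ± 0.32, edgeR quasi-likelihood test, adjusted p = 1.5e-13). MAOB, which breaks dopamine down, rose by 3.53 ± 0.27 (edgeR quasi-likelihood test, adjusted p = 6e-14). TH, the enzyme that begins dopamine synthesis, rose to only 0.373 ± 0.0749 CPM on day 14, against 0.0927 ± 0.0208 CPM on day 7 (edgeR quasi-likelihood test, adjusted p = 0.0093).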

How the data were processed

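Polyadenylated RNA was sequenced in 45 libraries (15 days, 3 libraries a day). The tools named in the submitters' processing notes are bcl2fastq 2.20.0, which writes reads per library, and RSEM, which estimates gene counts, with the build GRCh38. No source used here gives the RSEM version, the annotation release or the strand of counting. The deposited expected counts are estimates in which the authors shared ambiguous reads among genes, and 92.5% of them are whole; they were rounded here. The deposited TPM were scaled by the authors for length and library total. Of 58233 genes, 57895 matched a GENCODE 29 identifier, from which names and positions come.

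Each day had its own mean in a single robust quasi-likelihood model of all libraries (edgeR 4.0.16, R 4.3.3), after TMM scaling and edgeR's filter on genes of low count, which left 19436 genes and 30 residual degrees of freedom. Benjamini-Hochberg adjustment ran over all of these genes, and 0.05 was the threshold. CPM are counts scaled to the library total, and ratios of few counts carry 95% Clopper-Pearson counting intervals, which cover counting error only. A group with no counts was given a floor of 3 counts over its 3 libraries. The steps were tested on simulated counts.

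The members and lists were chosen with earlier results of these data known. Named besides the members are the 2 genes of highest r to each member and 8 to their mean (protein-coding, at least 1 CPM on some day), up to 3 called genes of each list with the largest change between days 7 and 14, and tested neighbours within 250 kb of members that adjoin each other. Other genes named were picked after their values were seen. A result that met these rules is not reported here. Alternatives were DESeq2 1.42.0, its size factors, no filter, a replicate block, only the days compared, limma 3.58.1 on log2(TPM + 1) and log2(TPM + 0.1), each replicate number left out and, chosen after seeing the data, single libraries left out. Same-numbered libraries deviated together in every pair in only 1 of the 7 comparisons of a day with another day, day 14 against day 10 (r = 0.45, 0.57 and 0.44 over genes); this link comes from the data, not from the labels.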

Additional observations from a re-analysis of the deposited data

How the results depend on the processing

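All 8 genes stayed higher on day 14 than on day 7 and on day 14 than on day 10, with an adjusted p under 0.05, under every alternative run. On day 13 against day 11 between 6 and 8 passed, and on day 10 against day 9 between 4 and 5. The fit of days 0 and 1 alone gave no value for any of the 8. The number of genes called over the whole table moved more. With only the days compared it was 4186 for day 14 against day 10 (6379 as reported), 563 for day 13 against day 11 (1735), 186 for odd against even days (1256) and 0 for the 2-day change (3). With limma it was 935 for day 13 against day 11 on log2(TPM + 0.1), 616 and 486 for odd against even days on log2(TPM + 1) and log2(TPM + 0.1), and 0 for the 2-day change on both; with no filter it was 837 for odd against even days. With replicates or single libraries left out the counts ran between 2760 and 5894 for day 10 against day 9 (5756 as reported), 3339 and 6489 for day 14 against day 10, 405 and 1754 for day 13 against day 11, 170 and 1087 for odd against even days and 0 and 3 for the 2-day change. The lowest came without replicate 1, except for odd against even days, where it came without replicate 3, and for the 2-day change, where each replicate left out gave 0; the fits without a replicate number hold 30 libraries. Otherwise the cause was not tested.

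Signs turned only where neither value passed the threshold. On day 1 against day 0, CP was -0.12 and -0.42 with limma on log2(TPM + 1) and log2(TPM + 0.1), and with libraries left out CP ran between -1.05 and 1.47, A2M between -4.41 and 0.24, SLC16A12 between -0.067 and 0.49 and DRD1 between 0 and 2.55. On day 7 against day 1 the ranges with libraries left out were -0.68 to 0.013 for CP, -0.79 to 0.21 for F5, -0.15 to 0.56 for TM4SF1, -0.22 to 0.63 for SLC16A12 and -0.12 to 4.69 for DRD1. On odd against even days, limma on log2(TPM + 1) gave -0.12 for CP, -0.088 for TM4SF1 and -0.065 for EVA1C, and on log2(TPM + 0.1) -0.10 for CP. With libraries left out the ranges were -0.12 to 0.23 for CP, -0.085 to 0.51 for F5, -0.13 to 0.45 for TM4SF1, -0.40 to 0.014 for SLC16A12 and -0.26 to 0.18 for DRD1. In the 2-day change EVA1C was -0.0039 with DESeq2, -0.00066 with its size factors and -0.0085 with only the days compared, and F5 was 0.30 and 0.34 with limma. There the ranges were -0.57 to 0.62 for CFI, -0.021 to 0.65 for CP, -0.53 to 0.35 for F5, -0.015 to 0.57 for TM4SF1, -0.15 to 0.26 for EVA1C and -0.085 to 0.52 for DRD1.

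A replicate block changed no call among the 8. With the block 6395 genes were called for day 14 against day 10, 10133 for day 14 against day 7 (10125 as reported), 5777 for day 10 against day 9, 1769 for day 13 against day 11, 1333 for odd against even days, 3 for the 2-day change, 12001 for day 1 against day 0 (11997) and 12339 for day 7 against day 1 (12338). In the blocked 2-day change F5 was 0.0027 and EVA1C -0.025. Apart from day 14 against day 10, at least 1 pair of same-numbered libraries fell under 0.1 in each comparison of a day with another day (r between -0.47 and 0.57 over all pairs). There a link between same-numbered libraries was not shown, and these values cannot exclude one. The pairing was not checked for odd against even days or the 2-day change. Few counts before day 9 limit every early comparison of these genes.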
